A study of Oryctolagus cuniculus with 17 samples.

Results

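The genes of the Hedgehog pathway described here are SHH, DHH, PTCH1, SMO, HHIP, GLI1, GLI2, GLI3 and BOC, found in the count table by their human gene name. All 9 were present, among 13827 table entries, and each symbol had 1 entry. RNA was measured in right lung homogenates of New Zealand White rabbit pups delivered by C-section on gestation day 28, so every pup was preterm, and all were fed milk replacer. Hyperoxia pups were kept at 95% O2 until postnatal day 3 (HT3, n = 3), 5 (HT5, n = 2) or 7 (HT7, n = 3), and normoxia pups at 21% O2 until the same days (NT3, NT5 and NT7, n = 3 each). The labels do not say whether pups of a group came from separate litters, so p-values measure only the spread between these 17 samples. The comparison asks how high oxygen changed the preterm lung transcriptome over the first week.

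Hedgehog signalling starts with a secreted ligand. PTCH1 is the receptor that holds the membrane protein SMO inactive until a ligand binds. SMO then acts through the primary cilium on the GLI transcription factors, of which GLI2 and GLI3 exist in full-length and repressor forms, while GLI1 is an activator. PTCH1, HHIP and GLI1 are themselves transcribed in response to the signal and are often used as its readout. In the developing lung SHH is made by the epithelium and received mainly by the mesenchyme beneath it, where it takes part in branching and in the growth of airway smooth muscle and myofibroblasts.

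Depth ran from 13123731 to 18111086 counts per sample when entries at the same locus were counted a single time. All 9 members passed the filter on low counts, with totals over the 17 samples from 949 counts (DHH) to 125259 (HHIP). Levels are given as CPM, that is, counts relative to the library size after TMM scaling. A gene passed when its adjusted p-value in the edgeR quasi-likelihood test was under 0.01, and it was a DEG when its log2FC was also above 2 or below -2, the thresholds of the study. Transcript lengths were not used, so levels are compared between samples of a gene and not between genes. The lung markers SFTPC (4033 to 12324 CPM) and AGER (669 to 4760 CPM) were high in every sample. Since these are homogenates, fewer cells of a type and less RNA per cell cannot be told apart.

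PTCH1, SMO and GLI1 were lower in hyperoxia on days 5 and 7 and DHH on day 7, while SHH, HHIP, GLI2, GLI3 and BOC did not pass on any day. On day 3 none of the 9 passed in edgeR, against 0.107% of the 13142 genes tested that passed as lower. DESeq2 likewise called 0, and 5 members had an unadjusted p under 0.05, as did 15.3% of all genes. On day 5, 3 members passed as downregulated (PTCH1, SMO and GLI1), against 7.62% of all genes, and on day 7, 4 did (DHH, PTCH1, SMO and GLI1), against 16.9%. No member passed as upregulated on any day, while 0.0989%, 8.56% and 16.7% of all genes did on days 3, 5 and 7. No member was a DEG on day 5, where 0.761% of genes were downregulated DEGs, and 2 were on day 7 (DHH and GLI1), where 2.84% were. With 1 sample left out at a time, the day 7 log2FC of GLI1 ran from -2.33 to -1.93, so it was not a DEG in every such fit. The median log2FC of the members was -0.42, -0.60 and -0.62 on days 3, 5 and 7, beside medians over all genes of 0.00, -0.02 and -0.01. Hyperoxia samples lay below all normoxia samples of the day, without overlap, for 4 members on day 3 (13.9% of all genes), 7 on day 5 (29.2%) and 7 on day 7 (27.2%).

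**Figure D1:**
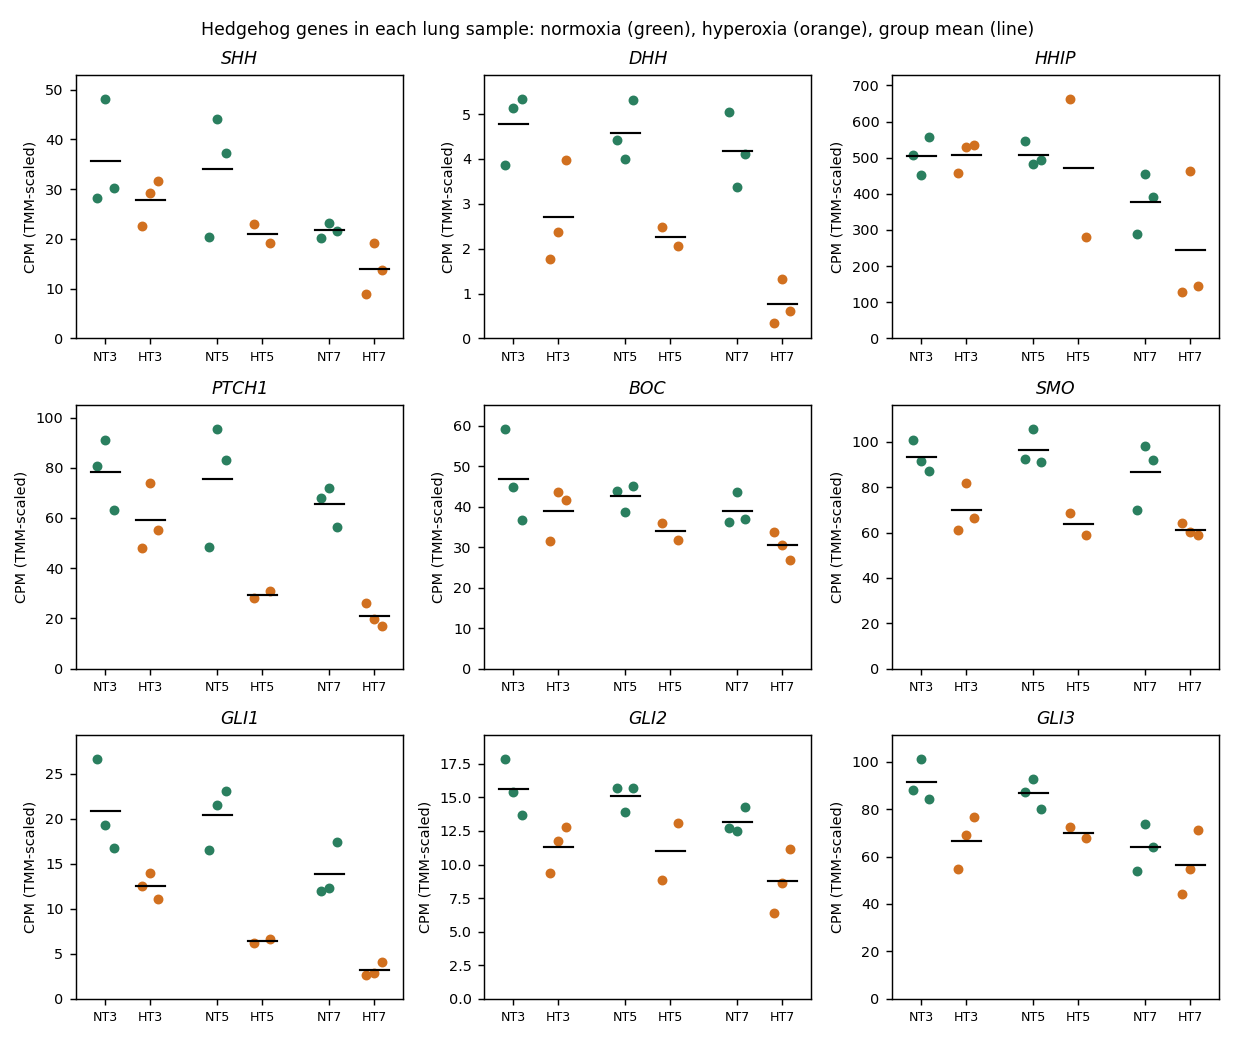
CPM (TMM-scaled, y axis from 0) of the 9 Hedgehog genes in each lung sample, by group on the x axis, with normoxia in green, hyperoxia in orange and the group mean as a line. GLI1 and PTCH1 of HT5 and HT7 lie below every normoxia sample, whereas HHIP of HT5 and HT7 is spread from 128 to 664 CPM.

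**Figure D2:**
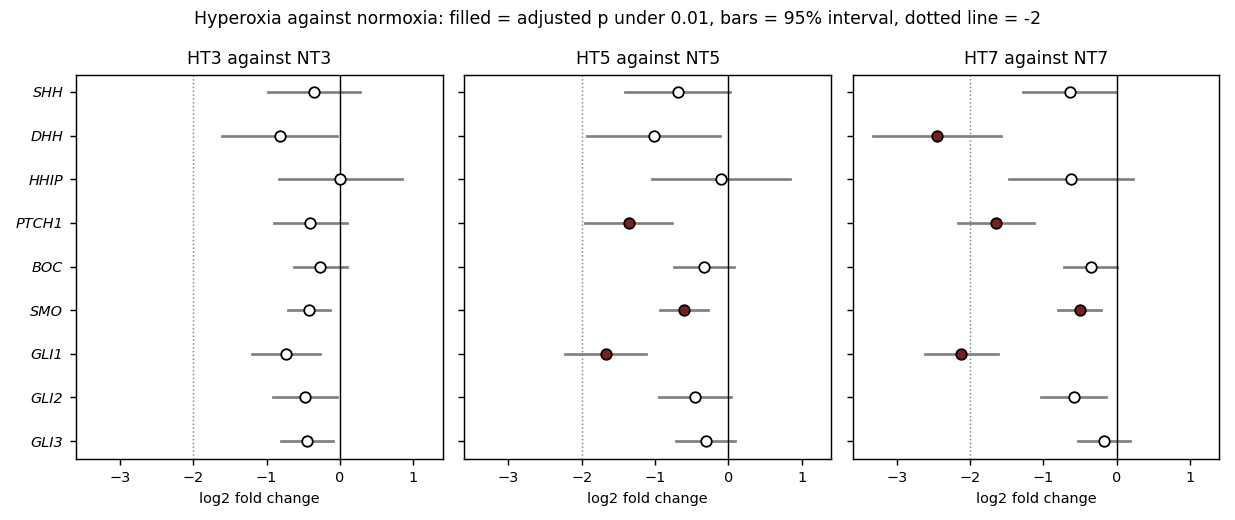
Log2 fold change of hyperoxia against normoxia (x axis) for each Hedgehog gene on days 3, 5 and 7, with 95% intervals from the edgeR fit. Filled points passed at an adjusted p under 0.01 and the dotted line marks -2; only DHH and GLI1 on day 7 are filled and lie beyond it.

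GLI1, the zinc finger activator at the end of the pathway (scaffold GL018714, 625674 to 633968, build OryCun2.0), passed on days 5 and 7. On day 3 it stood at 26.7, 19.3 and 16.8 CPM in NT3 and at 12.5, 14.0 and 11.1 CPM in HT3. The day 5 levels were 16.5, 21.6 and 23.2 CPM in NT5 and 6.19 and 6.60 CPM in HT5. By day 7, NT7 had 11.96, 12.3 and 17.4 CPM and HT7 2.60, 2.90 and 4.05 CPM. The groups did not overlap on any of these days. Its log2FC was -0.74 (SE 0.22) on day 3 with an edgeR adjusted p of 0.1196, then -1.67 (SE 0.26, adjusted p = 0.0004868) on day 5 and -2.12 (SE 0.23, adjusted p = 8.884e-06) on day 7, when it was 4.36-fold lower. Leaving out HT5 replicate 2 ended the call on day 5 at a log2FC of -1.74 (adjusted p = 0.012), where the single HT5 sample left is assumed to vary like the other groups, while the call on day 7 held without any single sample.

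GLI2, the main activator acting on GLI1 transcription, and GLI3, the main repressor, did not pass on any day. GLI2 (chromosome 7, 59737023 to 59899167) was at 17.9, 15.4 and 13.7 CPM in NT3 and at 9.35, 11.7 and 12.8 CPM in HT3, and at 15.7, 13.9 and 15.7 CPM in NT5 and 8.87 and 13.1 CPM in HT5. On both days all hyperoxia samples lay below those in normoxia. On day 7 it was at 12.7, 12.5 and 14.3 CPM in NT7 and at 6.40, 8.65 and 11.2 CPM in HT7, without overlap, and its log2FC of -0.59 (SE 0.21) did not pass in edgeR (adjusted p = 0.02951). On days 3 and 5 its log2FC was -0.47 and -0.46, with adjusted p-values of 0.2874 and 0.1435 in edgeR. GLI3 (chromosome 10, 24950515 to 25228857) was at 88.2, 101 and 84.4 CPM in NT3 and at 54.7, 68.9 and 76.6 CPM in HT3, and at 87.2, 92.7 and 80.1 CPM in NT5 and 72.4 and 67.7 CPM in HT5, without overlap on either day. On day 7 its groups overlapped, with 54.1, 73.6 and 64.2 CPM in NT7 and 44.1, 54.7 and 71.1 CPM in HT7. The log2FC of GLI3 was -0.45, -0.31 and -0.18 on days 3, 5 and 7, and the edgeR adjusted p-values were 0.2088, 0.225 and 0.4086.

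PTCH1 (chromosome 1, 74451134 to 74484677), the ligand receptor, followed GLI1. In NT3 it was at 80.7, 91.1 and 63.0 CPM and in HT3 at 48.1, 74.0 and 55.3 CPM, so the groups overlapped on day 3. The day 5 values of 48.4, 95.5 and 83.1 CPM in NT5 lay above the 28.0 and 30.9 CPM of HT5. NT7 samples had 68.1, 71.8 and 56.5 CPM, against 26.0, 19.9 and 16.96 CPM in HT7. Its log2FC was -0.40 (SE 0.23, adjusted p = 0.4353 in edgeR), -1.36 (SE 0.28, adjusted p = 0.002348) and -1.64 (SE 0.24, adjusted p = 8.99e-05) on days 3, 5 and 7. The day 5 call was lost without HT5 replicate 1 (log2FC -1.29, adjusted p = 0.01635), HT5 replicate 2 (-1.45, 0.03105) or NT5 replicate 2 (-1.15, 0.01062), the first and the second of these again with a single HT5 sample, and the day 7 call held without any single sample.

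SMO (chromosome 7, 15366399 to 15393567), the signal transducer that PTCH1 restrains, moved less. It was at 101, 91.6 and 87.3 CPM in NT3 and at 61.1, 81.6 and 66.5 CPM in HT3, with a log2FC of -0.42 (SE 0.13) that did not pass in edgeR (adjusted p = 0.1531). The levels were 92.5, 106 and 91.2 CPM in NT5 against 68.5 and 58.7 CPM in HT5, and 70.1, 98.2 and 92.2 CPM in NT7 against 64.0, 60.4 and 58.8 CPM in HT7. Its groups did not overlap on any of the 3 days. SMO fell by 0.60 (SE 0.15, adjusted p = 0.008953 in edgeR) on day 5 and by 0.51 (SE 0.13, adjusted p = 0.006352) on day 7 on the log2 scale. These calls were close to the threshold: on day 5 the adjusted p rose above 0.01 without any one of the 5 samples of that day, and on day 7 without any one of 5 of the 6 (NT7 replicate 1 was the exception), reaching 0.1135 and 0.03706.

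BOC (chromosome 14, 105924691 to 105997897), a cell surface co-receptor that binds Hedgehog ligands, did not pass on any day. It was at 59.3, 44.8 and 36.8 CPM in NT3 and at 31.5, 43.6 and 41.7 CPM in HT3, which overlapped, and at 44.0, 38.8 and 45.2 CPM in NT5 and 35.96 and 31.8 CPM in HT5, which did not. On day 7 it was at 36.2, 43.6 and 36.9 CPM in NT7 and at 33.8, 30.6 and 26.9 CPM in HT7, without overlap. Its log2FC was -0.27, -0.33 and -0.35 on days 3, 5 and 7, with edgeR adjusted p-values of 0.4688, 0.1946 and 0.099. The 95% interval of the day 7 log2FC ran from -0.72 to 0.01.

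HHIP (chromosome 15, 19928218 to 20030843), a membrane protein that binds Hedgehog ligands and limits their action, varied more between hyperoxia samples of a day than between conditions. On day 3 the groups overlapped, with 508, 451 and 558 CPM in NT3 and 459, 530 and 536 CPM in HT3. On day 5, NT5 had 547, 482 and 493 CPM, whereas the HT5 samples had 664 and 281 CPM, one above and one below all of NT5. On day 7, NT7 had 288, 456 and 391 CPM and HT7 128, 463 and 145 CPM, replicate 2 being the high sample. Its log2FC was 0.01 (SE 0.39), -0.10 (SE 0.44) and -0.62 (SE 0.39) on days 3, 5 and 7, and none passed in edgeR (adjusted p = 0.995, 0.8819 and 0.2081). Without HT7 replicate 2 the day 7 log2FC was -1.46 and passed (adjusted p = 0.0006082), and without HT5 replicate 2 the day 5 log2FC turned to 0.37 (adjusted p = 0.6742).

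The HT5 and HT7 samples with much HHIP RNA were also those with much RNA of alveolar type 2 cells, the cells that make surfactant. The list of markers of these cells, of which 9 of 10 genes were measured and none was at 0 in any sample, summed to 33536 CPM in HT5 replicate 1 and 12844 CPM in HT5 replicate 2. In HT7 it summed to 13746, 29994 and 16592 CPM in replicates 1, 2 and 3. Within normoxia the NT5 samples had the same order in both, with HHIP at 482, 493 and 547 CPM for sums of 12845, 16003 and 25247 CPM, whereas in NT7 replicate 1 had the highest sum, 23604 CPM, and the lowest HHIP, 288 CPM. On day 3 the sums of HT3, 25089 to 28367 CPM, all lay above those of NT3, 17774 to 20673 CPM, while HHIP overlapped. Within NT3 the sum was highest in replicate 1 and HHIP in replicate 3. In HT5 and HT7 the high samples, HT5 replicate 1 and HT7 replicate 2, also had the highest sums of their group in several other lists. Among these were alveolar type 1, fibroblast, mesothelium and proliferation markers, whereas endothelial and pericyte sums did not follow this order. The part of any of these cells in the HHIP values was not tested.

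**Figure D3:**
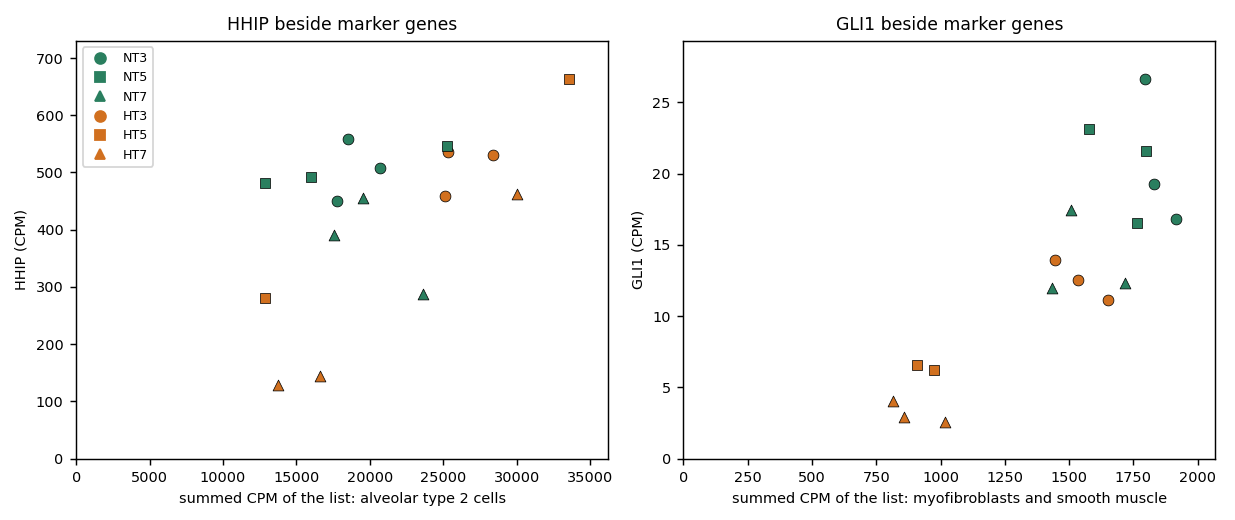
Left, HHIP (CPM, y axis) against the summed CPM of 9 alveolar type 2 cell markers (x axis), and right, GLI1 against the summed CPM of 9 myofibroblast and smooth muscle markers, 1 point per sample; shape gives the day and colour the condition. HHIP is high in the 2 HT5 or HT7 samples with sums of 33536 and 29994 CPM, and for GLI1 all HT5 and HT7 samples lie at sums of 1017 CPM or less, below the 1432 CPM of the lowest normoxia sample. Some lists not plotted, though not all, set these samples apart too. Fibroblast and mesothelium sums were highest in the same HT5 and HT7 samples as HHIP. Alveolar type 1, ciliated and endothelial sums of all HT5 and HT7 samples lay below every normoxia sample.

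SHH (chromosome 13, 11520223 to 11530440), the ligand of the lung epithelium, did not pass on any day. It was at 28.3, 48.2 and 30.3 CPM in NT3 and at 22.7, 29.2 and 31.7 CPM in HT3. The day 5 levels, 20.5, 44.1 and 37.4 CPM in NT5 and 23.0 and 19.1 CPM in HT5, overlapped because of NT5 replicate 1. On day 7, NT7 had 20.2, 23.3 and 21.7 CPM and HT7 8.83, 19.1 and 13.8 CPM, without overlap. The log2FC was -0.35 (SE 0.29), -0.69 (SE 0.34) and -0.64 (SE 0.30) on days 3, 5 and 7, with edgeR adjusted p-values of 0.6045, 0.1264 and 0.0903. The annotated span of SHH lies inside that of RBM33 on the opposite strand, and the sources do not say whether counting used the strand, so reads of the overlapping genes may not be fully separated. RBM33 itself, with group means from 130 CPM in HT7 to 194 CPM in HT3, had a log2FC of 0.14, -0.08 and -0.34 on the 3 days. On day 7 RBM33 lay lower in hyperoxia without overlap and did not pass (adjusted p = 0.0255 in edgeR). No other table entry overlapped the span of any other member.

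DHH (chromosome 4, 33388113 to 33392376), a ligand known from Schwann, Sertoli and endothelial cells, was counted least. It was at 3.87, 5.14 and 5.35 CPM in NT3 and at 1.77, 2.38 and 3.97 CPM in HT3, and at 4.42, 4.01 and 5.32 CPM in NT5 and 2.48 and 2.06 CPM in HT5. On day 7 it was at 5.06, 3.37 and 4.11 CPM in NT7 and at 0.346, 1.33 and 0.615 CPM in HT7, the latter resting on 6, 22 and 12 counts. HT5 and HT7 lay below all normoxia samples. Its log2FC of -0.82 (SE 0.37, adjusted p = 0.3031 in edgeR) on day 3 and -1.02 (SE 0.43, adjusted p = 0.08037) on day 5 did not pass, and that of -2.45 (SE 0.41, adjusted p = 0.0002258) on day 7 did, a 5.47-fold lower level. The day 7 call held without any single sample, and the log2FC ran from -3.08, without HT7 replicate 2, to -2.11.

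Marker genes of several cell types moved with these results. Of 15 marker lists, the summed CPM was lower in hyperoxia without overlap in 6 on day 3, 9 on day 5 and 9 on day 7. It was higher without overlap in 2 on day 3 (alveolar type 2 cells and neutrophils) and in 1 on days 5 and 7, where 8 of 9 macrophage markers summed to between 1125 and 1329 CPM in NT7 and between 1870 and 2438 CPM in HT7. Of those 8 genes 4 had a positive and 4 a negative log2FC on day 7, and CD68 made up most of the sum. For the mesenchyme that receives the ligand, the sum of 9 of 10 myofibroblast and smooth muscle markers ran from 1794 to 1915 CPM in NT3 and from 1443 to 1652 CPM in HT3, then from 1575 to 1801 CPM in NT5 against 908 to 973 CPM in HT5, and from 1432 to 1716 CPM in NT7 against 814 to 1017 CPM in HT7. On day 7, 5 of these 9 genes passed as lower and none as higher. Of all genes 16.9% and 16.7% did, shares to set beside the day 7 count of each marker list here and below. ACTA2 (log2FC -0.01) and TAGLN overlapped and DES lay higher without overlap (log2FC 0.75, adjusted p = 0.01727 in edgeR). The sum of 9 of 12 fibroblast markers overlapped on day 7, at 7699 to 9991 CPM in NT7 and 7205 to 8194 CPM in HT7, and was lower without overlap on days 3 and 5. Collagen genes made up most of this sum, and among the 9 genes 3 passed as lower on day 7 (TCF21, MEOX2 and MFAP5) and 2 as higher (LUM and FGF7). No gene of either list was at 0 in any sample. Their part in the changes of PTCH1 and GLI1 was not tested.

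Marker sums of Schwann and endothelial cells, sources named for DHH, were lower on day 7 without overlap. Those of the epithelium, the source named for SHH, were mixed. The sum of 7 of 8 Schwann cell and nerve markers ran from 94.6 to 209 CPM in NT7 and from 12.9 to 24.9 CPM in HT7, while that of 7 of 10 endothelial markers ran from 2166 to 2531 CPM in NT7 and from 885 to 1260 CPM in HT7. On day 7, 3 of the 7 Schwann cell and nerve genes and 5 of the 7 endothelial genes passed as lower. None passed as higher, and 1 gene of each list had a positive log2FC. The Schwann cell factor SOX10 was near 0 throughout, between 0.138 and 0.878 CPM in every sample. Among epithelial lists, 9 of 10 alveolar type 1 markers summed to between 7720 and 8769 CPM in NT7 and between 2118 and 2864 CPM in HT7. Of these 9 genes 6 passed as lower and none as higher on day 7, while HOPX (log2FC 0.35) and PDPN (0.15) overlapped. The sums of 5 of 8 general epithelial markers overlapped on day 7 at 1107 to 1344 CPM and 999 to 1335 CPM. All 5 of the latter genes passed on day 7, EPCAM, CDH1 and KRT18 as higher and CLDN18 and FOXA2 as lower. No gene of these lists was at 0 in any sample, and their part in the DHH and SHH values was not tested.

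Ratios of 2 members within a sample do not depend on the scaling between samples. GLI1 had 22.1, 16.8 and 27.2 counts per 100 GLI3 counts in NT7, and 5.88, 5.31 and 5.69 in HT7. The range was 19.0 to 30.2 over NT3 and NT5, 14.5 to 22.9 in HT3, and 8.55 to 9.75 in HT5. No HT5 or HT7 sample reached the lowest normoxia sample in this ratio, and the groups overlapped on day 3. PTCH1 had 97.2, 73.1 and 61.3 counts per 100 SMO counts in NT7 and 40.6, 32.9 and 28.9 in HT7. On day 5 these ratios overlapped slightly, with 52.4, 90.3 and 91.2 in NT5 and 40.8 and 52.6 in HT5, and on day 3 they overlapped.

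**Figure D4:**
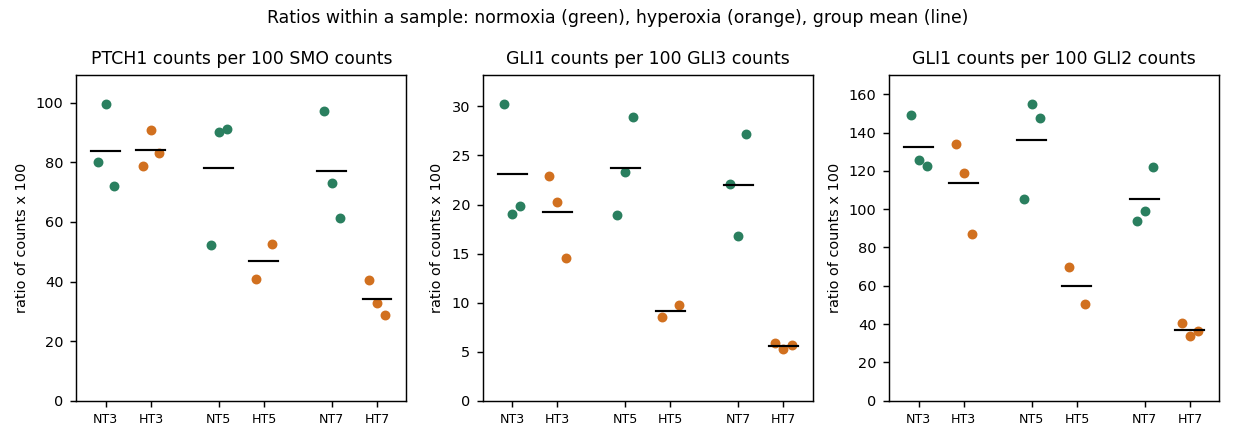
Counts of PTCH1 per 100 of SMO, of GLI1 per 100 of GLI3 and of GLI1 per 100 of GLI2 in each sample (y axis from 0), by group on the x axis, with normoxia in green, hyperoxia in orange and the group mean as a line. The 3 HT7 samples lie between 5.31 and 5.88 GLI1 counts per 100 GLI3 counts, where the 9 normoxia samples lie between 16.8 and 30.2.

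The size of the hyperoxia effect was compared between days in the same fit. GLI1 passed for a larger effect on day 7 than on day 3, the difference in log2FC being -1.39 (SE 0.32, adjusted p = 0.008396 in edgeR), where 4.68% of all genes passed in that direction. This call was close to the threshold: it held without HT7 replicate 3 or NT3 replicate 1 and was lost when any one of the 10 other samples was left out, with adjusted p-values up to 0.02483 and a difference between -1.60 and -1.19 throughout. For PTCH1 the difference was -1.24 (SE 0.33, adjusted p = 0.01879) and for DHH -1.63 (SE 0.54, adjusted p = 0.04626), and neither passed in edgeR. Without HT7 replicate 2 the difference for DHH was -2.27 and passed (adjusted p = 0.004675 in edgeR). Leaving out the same sample moved that for HHIP from -0.63 (adjusted p = 0.4448) to -1.47, which passed (0.007763). None of the 9 members passed for day 5 against day 3 (2 had an unadjusted p under 0.05, as did 20.3% of all genes, and DESeq2 called 0), where 0% of all genes did in edgeR.

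Within normoxia, no member passed between NT7 and NT3 in edgeR (0% of all genes did) or in DESeq2, although all 9 log2FCs were negative, between -0.71 for SHH and -0.10 for SMO, and 3 had an unadjusted p under 0.05, as did 6.27% of all genes. Within hyperoxia, 3 members were lower in HT7 than in HT3, where 15.1% of all genes passed in that direction. The log2FC was -1.97 for GLI1 (SE 0.23, adjusted p = 2.667e-05 in edgeR), -1.83 for DHH (SE 0.41, adjusted p = 0.00233) and -1.498 for PTCH1 (SE 0.24, adjusted p = 0.0002419). The DHH call was lost without HT3 replicate 3 (adjusted p = 0.01305), HT7 replicate 1 (0.0113) or HT7 replicate 3 (0.01406). It was also lost in an edgeR fit of the groups compared alone (0.03245). With 1 sample left out at a time, the DHH log2FC ran from -2.46 to -1.45. SHH had a log2FC of -1.003 and did not pass in edgeR (adjusted p = 0.0137), but it passed in DESeq2 (0.002821) and, in edgeR, without HT7 replicate 2 (0.004359). HHIP had a log2FC of -1.05 and did not pass in edgeR (adjusted p = 0.04292), but it passed without that sample (-1.89, adjusted p = 0.0001197). These contrasts share the HT7 or HT3 samples with those against normoxia. In order of mean level, PTCH1 and GLI1 ran NT3, NT5, NT7, HT3, HT5 and HT7, and only HT3 and HT5, and HT5 and HT7, did not overlap between neighbours. For SMO and GLI2 every pair of neighbours in the order overlapped.

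Across the 17 samples, which share days and conditions, the log2 CPM of PTCH1 and GLI1 had the highest Pearson correlation of any pair of members (r = 0.91), and HHIP and GLI2 the lowest (r = 0.44). The genes most like GLI1 over these samples were RGS7BP (r = 0.97), COL4A3 (r = 0.97) and MTSS2 (r = 0.96), and those most like PTCH1 were CEP95 (r = 0.97), ARHGAP28 (r = 0.96) and FOXF1 (r = 0.96). For SHH they were NOX4 (r = 0.93), FLRT3 (r = 0.92) and REST (r = 0.92), and for HHIP SLC4A4 (r = 0.94), EPHA7 (r = 0.93) and COL25A1 (r = 0.92). FOXF1, a mesenchymal forkhead factor long studied as a Hedgehog target in lung, was at 115 to 142 CPM in NT7 and 29.5 to 39.0 CPM in HT7, with a log2FC of -0.59, -1.23 and -1.90 on days 3, 5 and 7 (adjusted p = 0.056, 0.0001733 and 7.56e-07 in edgeR).

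Of 106 other genes of the pathway and its reported targets, 84 were tested. None passed on day 3 in edgeR, and 19 (22.6%) had an unadjusted p under 0.05, beside 15.3% of all genes. On day 5, 20 (23.8%) passed as lower and 8 (9.52%) as higher, beside 7.62% and 8.56% of all genes. On day 7, 35 (41.7%) passed as lower and 10 (11.9%) as higher, beside 16.9% and 16.7% of all genes, and these shares of all genes are the ones to set beside the day 7 count of each list. On day 7, 8 were downregulated DEGs and 2 upregulated ones, where 2.84% and 1.75% of all genes were. Of those named below, ARRB1, FOXF2, TBX5, IHH and SFRP1 were not DEGs in every fit with 1 sample left out. Their log2FC nearest to 0 in these fits was -1.835, -1.96, -1.90, -1.96 and 1.93. On day 5 the only DEG was upregulated, where 0.822% of all genes were. The median log2FC of the 84 genes was -0.14, -0.30 and -0.50 on days 3, 5 and 7.

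**Figure D5:**
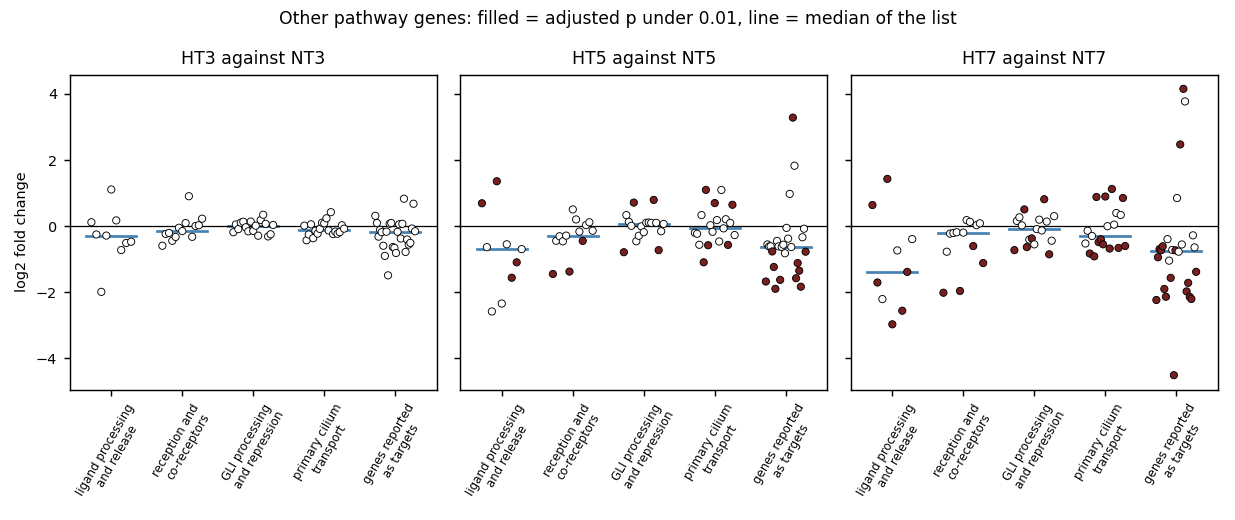
Log2 fold change of hyperoxia against normoxia (y axis) for the other pathway genes on days 3, 5 and 7, 1 point per gene, grouped by list on the x axis, with the list's median as a line. Filled points passed at an adjusted p under 0.01; none is filled on day 3, and on day 7 the medians of ligand processing and of reported targets are -1.38 and -0.75.

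Among genes that make, modify or release the ligand, 4 of 9 tested were lower and 2 higher on day 7, and the median log2FC of the list was -1.38. SCUBE1, of the secreted family that helps ligand leave the cell, was at 25.4 to 45.7 CPM in NT7 and 3.74 to 7.38 CPM in HT7, with a log2FC of -2.56 (SE 0.31, adjusted p = 1.958e-05 in edgeR). IHH, the third Hedgehog ligand, had 14, 26 and 78 counts in the NT7 samples and 1, 1 and 15 in the HT7 samples (fitted log2FC -2.97, SE 0.84, adjusted p = 0.009263 in edgeR). That call was lost without HT7 replicate 1 (adjusted p = 0.04015), HT7 replicate 3 (0.04253), NT7 replicate 2 (0.07567) or NT7 replicate 3 (0.01095), and the log2FC ran from -5.40, without HT7 replicate 2, to -1.96, without NT7 replicate 2. On day 3 IHH went the other way without overlap, with 36 to 47 counts in NT3 and 49 to 153 in HT3. Its log2FC of 1.11 (SE 0.70) on day 3 and -2.34 (SE 1.04) on day 5 did not pass in edgeR (adjusted p = 0.4693 and 0.09899). The other members of the list that passed on day 7 were chosen for naming after their values were seen. DISP1, which exports the ligand, had a log2FC of -1.70, and SCUBE2 one of -1.38. HHAT, which attaches palmitate to the ligand, rose with a log2FC of 1.43 (SE 0.27, adjusted p = 0.000586 in edgeR) and ADAM17 with one of 0.64.

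Among reception genes, 4 of 13 were lower and none higher on day 7, beside 16.9% and 16.7% of all genes, and the median was -0.20. ARRB1, a beta-arrestin that helps move SMO to the cilium, was at 207 to 293 CPM in NT7 and 51.4 to 64.1 CPM in HT7 (log2FC -2.01, SE 0.17, adjusted p = 1.544e-06 in edgeR). GPC3, a cell surface proteoglycan named after its values were seen, was at 204 to 224 CPM in NT7 and 37.5 to 83.8 CPM in HT7, with a log2FC of -1.96 (SE 0.27, adjusted p = 5.103e-05 in edgeR).

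Of 17 genes of GLI processing and repression, 4 were lower and 2 higher on day 7, beside 16.9% and 16.7% of all genes, with a median of -0.09. SUFU, which binds and restrains GLI proteins, was at 51.7 to 68.7 CPM in NT7 and 29.7 to 34.5 CPM in HT7 (log2FC -0.85, SE 0.13, adjusted p = 0.0001153 in edgeR), and BTRC, a ubiquitin ligase subunit that marks GLI3 for processing, fell by 0.72 on the log2 scale (SE 0.11, adjusted p = 0.0001501). Of 19 genes of cilium transport, 8 were lower and 4 higher, with a median of -0.30. IFT52, of the particle that moves cargo along the cilium, rose by 0.90 (SE 0.13, adjusted p = 8.853e-05 in edgeR) and TCTN2, of the gate at its base, rose by 0.85 (SE 0.14, adjusted p = 0.0001959).

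Of 26 genes reported elsewhere as Hedgehog targets, 15 were lower and 2 higher on day 7. FOXF2, a forkhead factor of lung mesenchyme, was at 39.2 to 44.3 CPM in NT7 and 7.17 to 10.6 CPM in HT7 (log2FC -2.13, SE 0.17, adjusted p = 8.962e-07 in edgeR). TBX5, a T-box factor of the same tissue, had a log2FC of -2.14 (SE 0.24, adjusted p = 1.112e-05), and the vascular factors VEGFA and ANGPT1 had -2.20 (SE 0.22, adjusted p = 4.95e-06) and -2.23 (SE 0.24, adjusted p = 7.077e-06). MYCN, a growth regulator, had 45, 46 and 198 counts in NT7 and 1, 3 and 10 in HT7, and its fitted log2FC of -4.51 ran from -5.74, without HT7 replicate 2, to -3.50, without NT7 replicate 3. The Wnt inhibitor SFRP1 rose, from between 5.40 and 11.8 CPM in NT7 to between 27.9 and 76.0 CPM in HT7 (log2FC 2.47, SE 0.46, adjusted p = 0.0004911 in edgeR). SNAI1, a repressor of epithelial genes, rose from between 0.202 and 0.684 CPM to between 1.87 and 14.0 CPM (log2FC 4.16, SE 0.77, adjusted p = 0.0004911, and 3.48 without HT7 replicate 1). On day 5 it was the DEG named above as a single gene, with a log2FC of 3.29 (adjusted p = 0.008258 in edgeR) that was lost without HT5 replicate 2 (log2FC 2.21, adjusted p = 0.1706), NT5 replicate 1 (0.02839), NT5 replicate 2 (0.03271) or NT5 replicate 3 (4.22, 0.01113), and was 3.87 without HT5 replicate 1.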

How the data were processed

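Gene expression was measured by strand-preserving mRNA sequencing of right lung homogenates. The submitters' processing notes name FastQC, STAR 2.7.10a and the rabbit build OryCun2.0, and the counting program is not given in the sources used here. The authors deposited raw counts per locus with no normalization, and 44 of 13827 entries carried no gene name. Samples were grouped by the oxygen level and day in the labels.

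Differential expression was tested in edgeR 4.0.16 (R 4.3.3). The filter filterByExpr kept 13142 entries, TMM factors ran from 0.958 to 1.05, and the quasi-likelihood fit had 1 mean for each of the 6 groups over all 17 samples, with a prior count of 0.125 and Benjamini-Hochberg adjustment over all genes tested. DESeq2 1.42.0, other normalization, filters, prior counts, samples in the fit, replicate blocks and leaving out each sample were tried as alternatives, and the procedure was tested on simulated data. The log2 CPM used for correlations had a prior count of 2. Figures were made with matplotlib 3.10.9.

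All 9 members were named. Some genes of the lists are not reported here. Of each other list the DEGs were named, or else the 2 genes with the smallest adjusted p-value, and as most similar genes the 3 with the highest correlation and an average of at least 1 log2 CPM. Members, lists and markers were chosen with earlier results of these data known. The correlations of deviations between samples of the same replicate number were 0.166, 0.131 and 0.199 on day 3, 0.264 and 0.141 on day 5, which had 2 pairs, and 0.174, 0.109 and 0.0695 on day 7. Neither the labels nor the methods say what the numbers stand for. With 3 pairs, each above 0.1, taken as the rule for pairing, only day 3 met it and is given with the number as a block too: 0 of 9 members passed either way, while the count over all genes went from 27 to 2.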

Additional observations from a re-analysis of the deposited data

Results flagged for a closer look

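The hyperoxia effect on GLI1 was singled out because it passed a test of the difference between days. Its log2FC on day 7 less that on day 3, tested as an interaction, was -1.39 (SE 0.32), with an edgeR adjusted p of 0.008396 over all genes tested. The call was lost when any one of 10 of the 12 samples was left out (adjusted p up to 0.02483) and in a fit of the groups compared alone (0.01257). All HT samples of both days lay below the NT samples of the same day.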

How the results depend on the processing

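The log2FCs of the 9 members against normoxia were recomputed under 342 combinations of member, day and alternative, and 317 kept their direction and their side of the threshold, 20 no longer passed, 1 passed anew and 4 changed direction. DESeq2, RLE size factors, no count filter and 1 entry per locus gave 0, 3 and 4 members on days 3, 5 and 7. A fit of the 2 groups compared alone gave 0 members on day 5 (12 genes in all, from 5 samples), 3 on day 7 and 0 for the effect of day 7 minus day 3. A log2FC minimum of 2 left 0 members on day 5, 2 on day 7, 0 for day 7 minus day 3 and 0 for HT7 against HT3, and an adjusted p under 0.05 gave 3 for day 7 minus day 3 and 5 for HT7 against HT3. DESeq2 gave 2 for day 7 minus day 3 (PTCH1 and GLI1). Leaving out 1 sample at a time gave 0 to 2 members on day 5, 3 to 4 on day 7, 0 to 2 for day 7 minus day 3 and 2 to 5 for HT7 against HT3. With the replicate number as a block within each day, 0, 2 and 3 members passed on days 3, 5 and 7, SMO being lost on both of the later days (adjusted p = 0.03527 and 0.02463 in edgeR), and the block changed no other call of a member against normoxia. With a block across days SHH also passed in HT7 against HT3, making 4. By the rule for pairing only day 3 met it, since day 5 had 2 pairs and 1 correlation on day 7 was 0.0695.

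Directions turned only for values that did not pass. Leaving out 1 sample moved the log2FC of HHIP between -0.068 and 0.084 on day 3 and between -0.85 and 0.37 on day 5, and that of SMO in NT7 against NT3 between -0.20 and 0.031. For day 7 minus day 3 the ranges were -0.22 to 0.039 for SMO, -0.29 to 0.063 for BOC and -0.33 to 0.064 for GLI2. For day 5 minus day 3 they were -0.27 to 0.085 for BOC, -0.43 to 0.18 for DHH, -0.86 to 0.36 for HHIP and -0.32 to 0.26 for GLI2, which was -0.00076 with 1 entry per locus. The cause was not tested. The other pathway genes named were put through the same alternatives on the days they passed, a choice made after seeing the data, and 384 of 440 values kept their call, 56 no longer passed and none turned. HT5 had 2 samples, and the HT7 samples had 6 to 22 counts of DHH.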
